A study of Homo sapiens with 8 samples.

Results

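Mitochondrial ribosomal protein (MRP) genes are the nuclear genes whose products, with ribosomal RNA made inside the organelle, build the ribosome of mitochondria. Peaks of an RBFOX2 eCLIP experiment were taken as members when their midpoint lay in the GRCh38 RefSeq span of a protein-coding gene with an MRPL or MRPS symbol and when they lay on the strand of that gene. The RefSeq tables used here name 77 such genes and give a strand for 69 of them, 42 MRPL and 27 MRPS genes. These 69 genes held 2624 of the 1118316 called peaks of the series, with 648, 648, 679 and 649 peaks in libraries 1 to 4. The other 8 genes (MRPL2, MRPL10, MRPL13, MRPL15, MRPL21, MRPL23, MRPL35 and MRPS28) are described separately at the end, by span alone.

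RBFOX2 is a splicing regulator that binds GCAUG in RNA, mostly in introns beside regulated exons. The mitochondrial ribosome makes the few proteins encoded by the mitochondrial genome, all of them parts of the respiratory chain. Its proteins are translated in the cytosol and imported, and its large subunit carries out peptide bond formation while its small subunit reads the messenger RNA. MRPL symbols stand for large-subunit and MRPS symbols for small-subunit proteins, except that MRPS30 and MRPS18A are large-subunit proteins by their systematic names. Some of its proteins have counterparts in all ribosomes, some only in bacteria, and some occur in mitochondria alone.

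HEK293T cells, an established line from human embryonic kidney, were crosslinked with ultraviolet light (254 nm, 400 mJ per square centimetre). RBFOX2 was immunoprecipitated (IP) with the RNA crosslinked to it, and 2% of each sample was set aside as its input. There were 4 IP and 4 input libraries, numbered 1 to 4, from the same untreated and unmodified cell line as far as the labels say. Nothing in the labels says that the 4 came from separate cultures, so the spread between them may be technical. Each deposited list gives, per peak, a −log10 p and a log2 fold of IP over the input of the same number, both the authors' own values. Read counts were not used here, so the depth behind a fold is unknown, and the folds take a few step values such as 0, 1 and 1.58.

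The letters GCATG could be looked for only in the first 50 transcribed bases of each gene, the part of a member that the RefSeq promoter table (GRCh38.p14) covers. These bases hold 1.57% of the bases under member peaks. GCATG, read on the strand of the gene, stood there in 7 of 69 members (10.1%), against 497 of 15843 protein-coding genes with a strand (3.14%). The longer TGCATG, which contains it, stood in MRPL1 alone among the members (1.45%, against 0.537%). GCATG contains ATG, the letters of the usual start codon. ATG stood in the window of 44 members (63.8%) and of 35.5% of all protein-coding genes, and among windows with ATG the share with GCATG was 15.9% and 8.84%. The 7 members are printed because they are the places in these genes where the letters bound by RBFOX2 can be set beside the peaks. Capitals mark GCATG, and each line gives 30 bases of the strand of the gene, 5′ to 3′.
MRPL1 (chr4:77862850-77862879, plus strand): tggcggcggccgtaaggtGCATGggtagag
MRPL19 (chr2:75646794-75646823, plus strand): gtgagctagctgGCATGgcggcctgcattg
MRPL27 (chr17:50373155-50373184, minus strand): gagtgatcgaaaGCATGgcgtcggtggtgt
MRPL52 (chr14:22829899-22829928, plus strand): tactcctgctcaGCATGgctgctttaggga
MRPL58 (chr17:75012673-75012702, plus strand): cgcaagacctgaGCATGgcggccaccaggt
MRPS15 (chr1:36464342-36464371, minus strand): gatcctgggccaGCATGgcggcgcccatgt
MRPS35 (chr12:27710852-27710881, plus strand): cgccgcgctcccaGCATGgctgtctctgca

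None of these 7 places held an enriched peak. Called peaks touched the 5 letters in 5 of the 7 genes, 11 peaks in all, and their log2 folds ran from −1.59 to 1.00. In MRPL19 the fold on the letters was 1.00, −1.0 and −1.59 in libraries 2, 3 and 4, with no peak in library 1. MRPL58, a peptidyl-tRNA hydrolase that became part of the large subunit, had −1.0 in library 2 and −1.58 in library 3. In MRPS35 it was −1.58 in library 2 and 0.74 in library 4. MRPL52 had −0.000866, −1.58 and −0.000497 in libraries 1, 3 and 4. The only peak on the letters of MRPL1 was in library 1, at −0.000866, and no peak touched those of MRPL27 and MRPS15. No gene showed these letters under a peak that was above input in more than 1 library.

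Over the first 50 bases as a whole, 92 peaks of 40 members had a mean log2 fold of −0.11, −0.42, −0.31 and −0.29 in libraries 1 to 4 (mean −0.28 ± 0.13, SD, n = 4). Member peaks elsewhere had −0.06 ± 0.05. For all protein-coding genes the corresponding means were −0.06 ± 0.08 on the first 50 bases and 0.18 ± 0.03 elsewhere. In both sets of genes the peaks at the gene start thus had the lower mean fold in each of the 4 libraries. The 16 member peaks in starts with GCATG, from 6 genes, had a mean of −0.64 ± 0.61. The 76 in starts without it had −0.22 ± 0.22, values that overlap over the libraries. Over all protein-coding genes the order was the other way. There, 215 peaks in starts with GCATG had 0.05 ± 0.16 and 7675 in starts without it −0.06 ± 0.08, again with overlap.

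Called peaks were present in all 69 genes, and in each of the 4 libraries for 67 of them. The number per gene, summed over the libraries, ran from 5 in MRPL53, a gene of 699 nt, to 303 in MRPS6, with a median of 23. Per length of gene span, the number ran from 0.462 peaks per kb in MRPS35 to 10.2 in MRPL51. The median was 3.47 per kb, against 0.696 per kb over all protein-coding genes with a strand, of which 10503 of 15843 held a called peak. Members are short, with a median span of 8553 nt against 25601 nt.

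The 5 genes with the most peaks held 782 of the 2624 (29.8%). MRPS6, a small-subunit protein with a bacterial counterpart, had 77, 76, 74 and 76 peaks in libraries 1 to 4. Of its 303 peaks, 195 also lay in the span of SLC5A3, an inositol transporter gene on the same strand, and cannot be given to either gene. MRPS27, a pentatricopeptide repeat protein of the small subunit, had 35, 40, 37 and 29 peaks. MRPL3, a protein near the catalytic centre of the large subunit, had 29, 35, 33 and 27. MRPS25, a small-subunit protein found only in mitochondria, had 27, 28, 30 and 25. MRPL37, a mitochondria-specific protein of the large subunit, had 29, 26, 25 and 24. The counts differed little between libraries, and none of these genes except MRPL37 held an enriched peak.

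**Figure D1:**
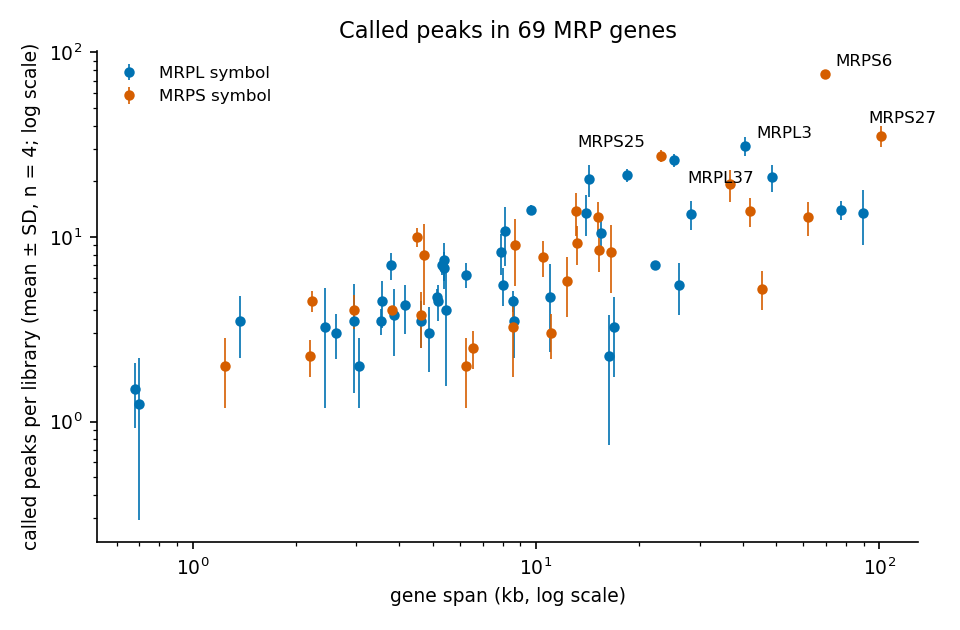
Called peaks per library (mean ± SD over 4 libraries, vertical log scale) against the gene span in kb (horizontal log scale) for 69 MRP genes, MRPL symbols in blue and MRPS symbols in orange. The 5 labelled genes have the most peaks, from 26 per library in MRPL37 to 75.75 in MRPS6, and longer genes tend to hold more.

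Enrichment was rare. Peaks count as enriched here where the log2 fold is 3 or more (8-fold) and the −log10 p also 3 or more, and 3 of the 2624 member peaks met this (0.114%), against 0.818% of all called peaks and 0.81% of peaks in protein-coding genes on the strand of the gene. The counts were 1, 1, 1 and 0 in libraries 1 to 4, or a mean of 0.114% ± 0.0761 (SD, n = 4), beside 0.861%, 0.848%, 0.789% and 0.775% of all called peaks. In each library the member share was below that of all peaks, and 0 of 649 peaks in library 4 allows a share of up to 0.462% by counting error alone. That limit, like those given below for counts of 0, takes each peak as independent. Peaks of the same gene, or of the same site in several libraries, need not be, so the limits may be too tight. In protein-coding genes with spans like those of the members (between 4498 and 16590 nt, the quartiles of the members), 1.43% of peaks were enriched. Enriched peaks stood in 2 of 69 members (2.9%), against 899 of 15843 protein-coding genes with a strand (5.67%) and 191 of 3997 with like spans (4.78%). All 69 members held a called peak, but only 10503 of the 15843 and 2367 of the 3997 genes did. The 2 comparison shares are thus lowered by genes without any called peak. The member share by gene rests on 2 genes, and the difference was not tested.

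The 3 enriched peaks lay in 2 large-subunit genes. MRPL14 held 1 in library 1 (log2 fold 3.17, −log10 p 5.07) and 1 in library 2 (3.39 and 4.45). MRPL37 held 1 in library 3 (3.70 and 3.01). The 1255 peaks of the 27 MRPS genes held 0, which would allow a share of up to 0.239% if all these peaks were independent. The 1369 peaks of the 42 MRPL genes held 3 (0.219%). The difference was not tested. A log2 fold of at least 3 without regard to p was reached by 10 member peaks (0.381%, against 1.39% of all called peaks). The 7 of them that were not enriched lay in MRPL37, MRPS5, MRPS6, MRPS21 and MRPS34, with −log10 p between 1.67 and 2.47.

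A log2 fold below −0.5 was found for 32.9%, 34.4%, 36.5% and 34.5% of member peaks in libraries 1 to 4 (mean 34.6% ± 1.5, SD, n = 4), against 23.1%, 23.5%, 24.3% and 23.4% of all called peaks. The ranges do not overlap. Pooled over libraries, that share was 34.6% in members, 36.6% in cytosolic ribosomal protein genes and 36.6% in the other mitoribosome protein genes. It was 33.6% in mitochondrial translation factor genes, 27.5% in mitoribosome assembly factor genes and 24.6% in protein-coding genes of like span. A fold above 0.5 was found for 28.2% ± 2.41 of member peaks and 31.4% ± 1.35 of all called peaks. By library the share was 31.3%, 28.4%, 25.5% and 27.7% in members, against 33.1%, 31.6%, 29.8% and 31.2%. The ranges overlap over the libraries, but the member share was the lower one in each of the 4. In protein-coding genes of like span, 39.6% of peaks had a fold above 0.5. The median log2 fold of member peaks lay at the step nearest 0 in each library, as for all peaks.

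**Figure D2:**
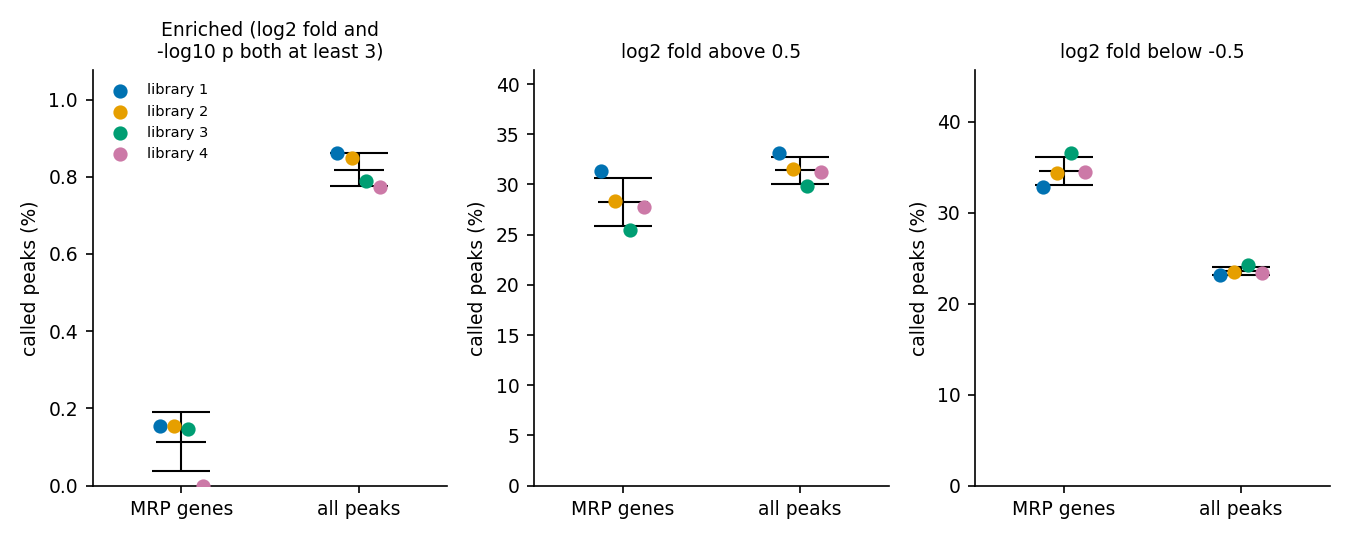
Percent of called peaks (vertical axes, from 0) that were enriched, had a log2 fold above 0.5 or had one below −0.5, for peaks in 69 MRP genes and for all called peaks. Coloured points are the 4 libraries, bars their mean ± SD. The MRP points lie below those of all peaks on the left and above them on the right. In the middle the ranges overlap, with the MRP point the lower one in each library.

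Merging enriched peaks that overlapped on the same strand gave 2 member regions, the MRPL14 one found in 2 libraries and the MRPL37 one in 1. No member region was enriched in all 4 libraries. Over all genes, 47.2% of 3371 enriched regions were found in at least 2 libraries and 16.4% in all 4. Without library 1 or without library 2, the number of member regions in at least 2 libraries was 0, since MRPL14 owes both of its calls to them.

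To ask which folds held up over the libraries, called peaks were merged and each region with a peak in all 4 libraries was tested against a mean log2 fold of 0 (limma across 49493 regions, Benjamini-Hochberg adjusted p at most 0.05). Members held 142 such regions in 44 genes. Their mean log2 fold was above 0 in 20 (14.1%), against 21.1% of all tested regions, and below 0 in 5 (3.52%), against 1.81%. The median of the mean fold was 0.27 in members and 0.50 over all tested regions. In the 20 higher regions the mean ran from 0.90 to 2.92 with a median of 1.60. A mean of 3, the fold used above, was reached by 0 of these 20 and by 1194 of the 8172 higher regions of protein-coding genes. The member count rests on 20 regions and the difference was not tested, so nothing is read into it. The median over the 8172 regions was 2.04.

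With 3 libraries the lowest limma adjusted p of any region in the genome lay between 0.0484 and 0.0507, at the threshold, so these fits say little about how stable a call is. Without library 1 and without library 4, 0 member regions and 0 regions of the genome were called. Without library 2, 0 of 184 member regions were higher, against 1271 of 62378 in the genome (2.04%). Without library 3, 1 of 176 was higher, against 2470 of 62794 (3.93%). No lower member region was called in these fits, and the lowest limma adjusted p of a member lay between 0.0484 and 0.0523. The mean log2 fold of the highest member region, in MRPL37, stayed between 2.66 and 3.12. Tested against a log2 fold of 1 in place of 0, 1 of 142 member regions was higher (0.704%), in MRPL37 (limma adjusted p = 0.0313), against 2770 of 49493 in the genome (5.6%), and 0 were lower, against 93 (0.188%).

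By class, 8 of 43 tested regions in genes with counterparts in all ribosomes were higher and 3 lower. In genes with counterparts only in bacteria, 5 of 43 were higher and 2 lower. In mitochondria-specific genes, 7 of 54 were higher and 0 lower. The classes come from the systematic protein names in the RefSeq table, which give 21, 16 and 31 of the 69 genes and leave MRPS24 without a class. By subunit symbol, 14 of 72 MRPL and 6 of 70 MRPS regions were higher. Over all tested regions, 21.1% were higher and 1.81% lower. Differences between classes or subunits were not tested. The 20 higher regions lay in 12 of the 44 genes with a tested region and the 5 lower ones in 5 others. How often a gene holds both kinds was not counted over all genes, so nothing is read into this.

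MRPL37 (gene ID 51253) stood out with 5 of the 20 higher regions. One of the 5, from 54220091 to 54220283, had a mean of 0.90 (limma adjusted p = 0.0498). Libraries 2 and 3 each also held a peak at −1.0 inside it, which the rule for the fold of a region passed over. The other 4 lay side by side within 787 nt, on chromosome 1 from 54217568 to 54218354, plus strand. They were centred between 68.9% and 71.6% of the way along the gene span. The first of them, 54217568 to 54217655, had the highest mean of all tested member regions. Its log2 fold was 3.32, 2.32, 3.70 and 2.32 in libraries 1 to 4 (mean 2.92 ± 0.70, SD, n = 4; limma adjusted p = 0.00756). Libraries 1 and 3 were above 3 and libraries 2 and 4 below it. Its highest −log10 p, at 3.01 in library 3, sits just past the limit, while libraries 1, 2 and 4 had 1.93, 1.65 and 1.41.

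The next region, 54217686 to 54217800, had 1.41, 2.12, 1.14 and 1.32 (mean 1.5 ± 0.43; limma adjusted p = 0.0198). The one after it, 54217856 to 54217936, had 2.58, 1.81, 1.74 and 3.0 (mean 2.28 ± 0.61; limma adjusted p = 0.0104). The last, 54218220 to 54218354, had 0.79, 1.93, 2.00 and 1.22 (mean 1.48 ± 0.58; limma adjusted p = 0.0284). All 16 values of the 4 regions were above 0, from 0.79 to 3.70, but the regions were called on these same values. No library was the highest in all 4 regions. The tested region just upstream, 54217356 to 54217471, had −0.26, 1.42, 2.42 and 0.85 and was not called (limma adjusted p = 0.167). Between the third and the last of them lay a library 1 peak at 0.58 and a library 4 peak at −0.59, each called in that library alone. No other gene span in the table covers the stretch. Whether the stretch is exonic or intronic was not analysed here, since the gene table gives spans alone.

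**Figure D3:**
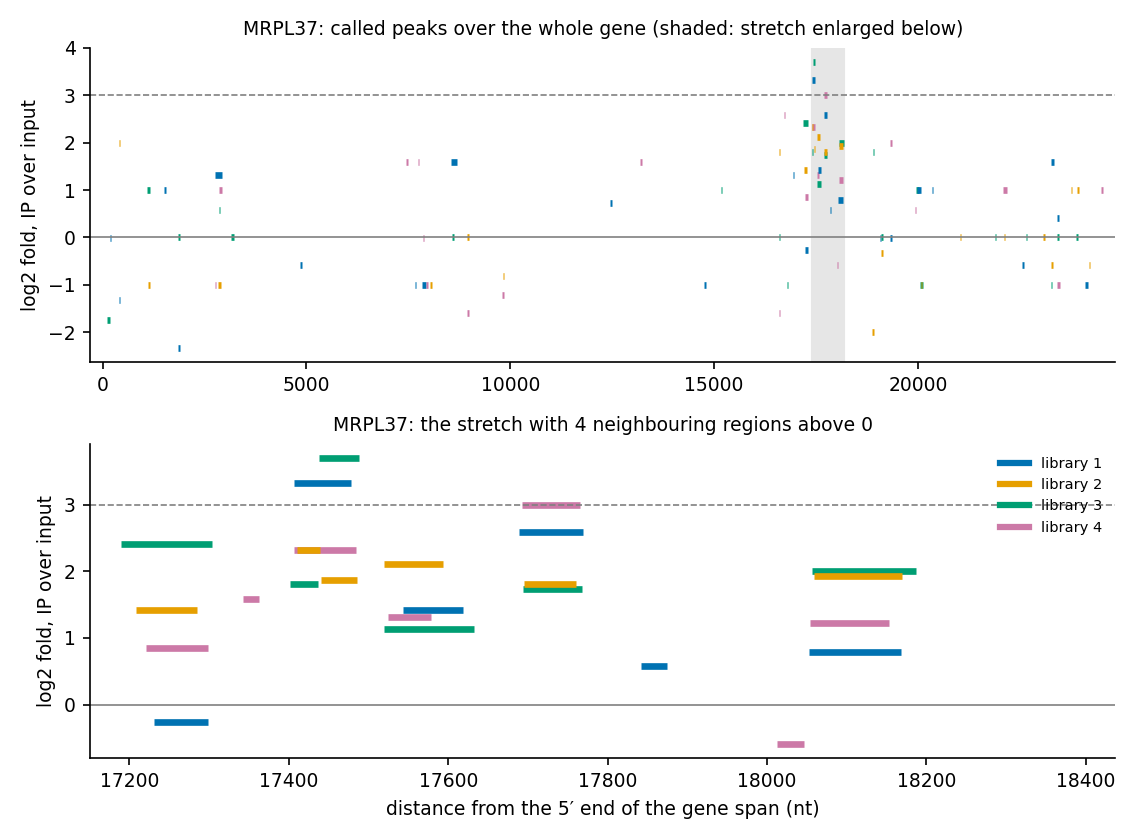
Called peaks of MRPL37 as horizontal bars from peak start to peak end, by distance from the 5′ end of the gene span in nt, at their log2 fold of IP over input (vertical axis), coloured by library. The dashed line marks a log2 fold of 3. The upper panel covers the whole gene and the lower panel the 787 nt stretch with its surroundings, where 4 groups of bars from all 4 libraries lie above 0.

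MRPL14 (gene ID 64928), a large-subunit protein at the face that meets the small subunit, had the highest deposited −log10 p of any member peak, in library 1. Its region lies on chromosome 6 from 44113895 to 44114045, minus strand, centred 519 nt from the 3′ end of the gene span. The log2 fold was 3.17, 3.39, 1.00 and 2.66 in libraries 1 to 4 (mean 2.56 ± 1.08, SD, n = 4; limma adjusted p = 0.0200). The −log10 p was 5.07, 4.45, 0.721 and 3.07. Library 3 was low on both measures, and library 4 missed the call on its fold, not on its p. Without library 3 this was the only member region still called, at a mean log2 fold of 3.08 (limma adjusted p = 0.0484).

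MRPS21 (gene ID 54460), the small-subunit counterpart of a bacterial protein, had the second highest mean. Its region on chromosome 1 from 150302327 to 150302582, plus strand, had log2 folds of 1.58, 2.00, 3.17 and 3.58 (mean 2.59 ± 0.95; limma adjusted p = 0.0154). Here libraries 3 and 4 were the high ones, the reverse of MRPL14 for library 3. The −log10 p stayed between 0.836 and 2.47, so no library had an enriched peak. A region 428 nt from the 5′ end of the span, from 150294202 to 150294377, had 1.00, 1.14, 2.12 and 2.22 (mean 1.62 ± 0.64; limma adjusted p = 0.0258).

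MRPS5 (gene ID 64969), a small-subunit protein with counterparts in all ribosomes, had 3.17, 3.0, 2.59 and 0.41 on chromosome 2 from 95091891 to 95092016, minus strand (mean 2.29 ± 1.28; limma adjusted p = 0.0372). Library 4 stood well below the other 3. With a length-weighted mean over the peaks of each library, the region was not called (mean 2.09, limma adjusted p = 0.0777). A second MRPS5 region, from 95108176 to 95108404, had 1.32, 1.00, 2.00 and 2.00 (mean 1.58 ± 0.50). MRPL34 (gene ID 64981), whose bacterial counterpart is a small protein of the large subunit, had 1.49, 1.5, 2.39 and 2.94 on chromosome 19 from 17301410 to 17301555, plus strand (mean 2.08 ± 0.71; limma adjusted p = 0.0165). Its −log10 p reached 3.27 in library 3 and 4.06 in library 4, past the limit, with folds under 3. ABHD8 lies there on the opposite strand.

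MRPL30 (gene ID 51263), a protein of the large subunit, had 2.58, 2.32, 2.00 and 1.00 on chromosome 2 from 99190692 to 99190877, plus strand (mean 1.98 ± 0.69). MRPL4 (gene ID 51073), which lines the exit tunnel of the large subunit, had 1.32, 2.32, 1.59 and 1.58 on chromosome 19 from 10257043 to 10257120, plus strand (mean 1.70 ± 0.43). MRPS11, a protein of the small-subunit platform, had 1.58, 1.81, 0.59 and 2.58 on chromosome 15 from 88472294 to 88472456, plus strand (mean 1.64 ± 0.82). The limma adjusted p-values of these 3 regions were 0.0178, 0.0148 and 0.0373. In all 3, every library was above 0, on the same values that gave the call, and none reached a log2 fold of 3. The remaining higher regions lay in MRPL4, MRPL27, MRPL34, MRPL37, MRPL42, MRPL46 and MRPS7, with means from 0.90 to 1.5. The MRPS7 region is centred 113 nt from the 3′ end of its gene span.

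**Figure D4:**
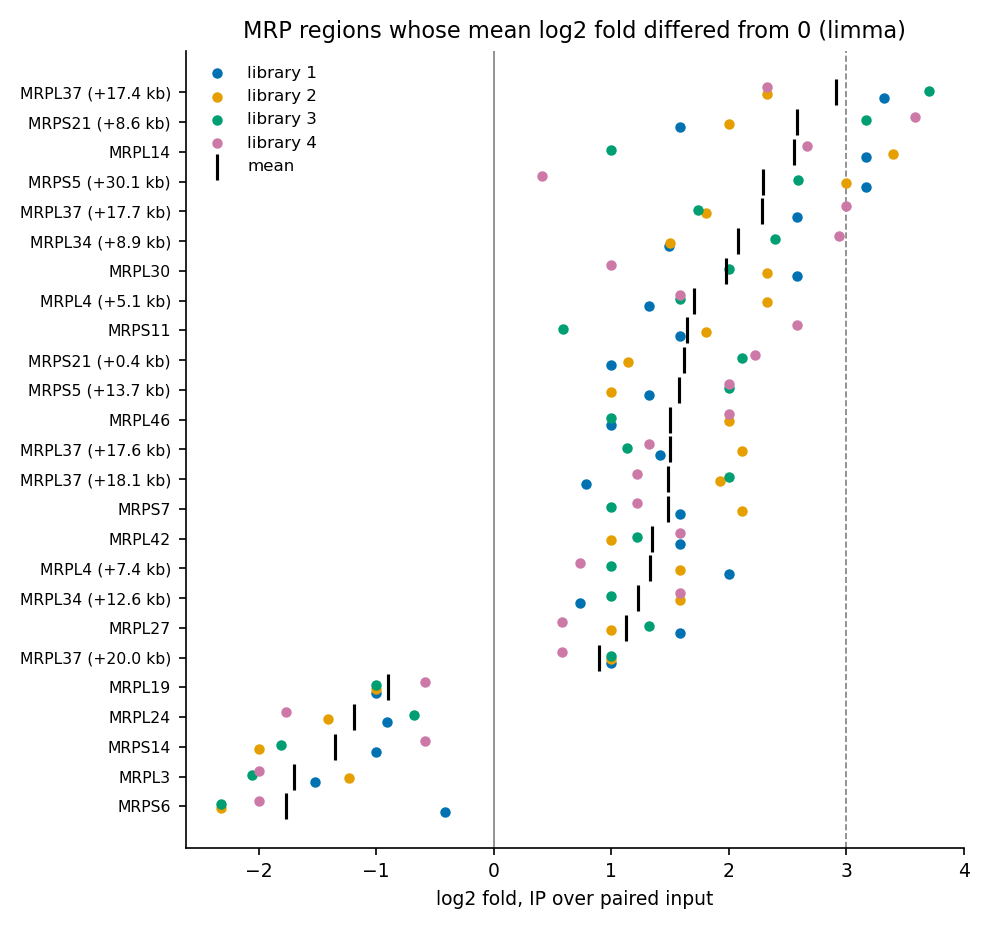
Log2 fold of IP over its input (horizontal axis) in each of 4 libraries for the 25 MRP regions whose mean differed from 0 by limma, with the mean as a black bar, the dashed line at a log2 fold of 3, and the distance of the region from the 5′ end of the gene span where a gene has several. Means run from −1.76 in MRPS6 to 2.92 in MRPL37, and 4 regions have a library above the dashed line.

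Of the 5 lower regions, the lowest was in MRPS6 on chromosome 21 from 34085612 to 34085678, plus strand, a stretch shared with SLC5A3. Its log2 fold was −0.42, −2.32, −2.32 and −2.0 (mean −1.76 ± 0.91; limma adjusted p = 0.0372), with library 1 apart from the other 3. MRPL3 had −1.52, −1.23, −2.05 and −2.0 on chromosome 3 from 131479169 to 131479235, minus strand (mean −1.70 ± 0.39; limma adjusted p = 0.0136). That region overlaps the annotated span of SNORA58, a small nucleolar RNA gene whose strand the tables do not give, so its signal cannot be given to MRPL3 alone. MRPS14 had −1.0, −2.0, −1.81 and −0.59 (mean −1.35 ± 0.67). MRPL24 had −0.91, −1.41, −0.68 and −1.77 (mean −1.19 ± 0.49), 339 nt from its 5′ end and inside the span of HDGF on the same strand. MRPL19 had −1.0, −1.0, −1.0 and −0.59 (mean −0.90 ± 0.21), 358 nt from its 5′ end. The limma adjusted p-values of these 3 were 0.0450, 0.0413 and 0.0498. All values of the 5 regions were below 0, but the regions were called below 0 on these same values.

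Along the gene span, 16.6% ± 0.769 of member peaks lay in the first 10% and 12.1% ± 0.866 in the last 10% (SD, n = 4), with between 7.90% and 9.87% in each 10% step between. All protein-coding genes had 14.9% ± 0.229 and 11.5% ± 0.187 there. The mean log2 fold of member peaks was highest between 60% and 70% of the span, at 0.24 ± 0.05, a step that holds the MRPL37 stretch in part. In all protein-coding genes it was highest between 80% and 90%, at 0.25 ± 0.03. Of the 3 enriched peaks, 1 lay between 60% and 70% and 2 in the last 10%.

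Genes of the same machinery with other symbols were set beside the members. The 5 other mitoribosome proteins (DAP3, AURKAIP1, CHCHD1, PTCD3 and GADD45GIP1) had 265 called and 0 enriched peaks, which allows up to 1.13% if peaks are independent. Of their 21 tested regions, 2 were higher and 0 lower. The 10 mitochondrial translation factors with a strand, such as the elongation factor TUFM, had 456 called and 0 enriched peaks (up to 0.658% on the same terms). Of their 21 regions, 0 were higher and 1 lower. The 17 assembly factors had 1199 called and 3 enriched peaks (0.25%) in 3 genes, with 12 of 72 regions higher and 0 lower. The 68 cytosolic ribosomal protein genes, which supply the ribosome of the cytoplasm, had 2633 called and 32 enriched peaks (1.22%) in 10 genes, with 31 of 318 regions higher and 26 lower. Enriched peaks were thus more frequent per called peak in the cytosolic set than in the members, a difference that was not tested. Over the whole series, 0.818% of called peaks were enriched, and 21.1% of tested regions were higher and 1.81% lower.

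The 8 genes without a strand in the tables held 358 called peaks, and in each of the 8 all peaks lay on 1 strand. They had 1 enriched peak, against 0.818% of all called peaks, in MRPL21 (gene ID 219927) on chromosome 11 from 68891658 to 68891779, minus strand, with a log2 fold of 3.70 and a −log10 p of 3.01 in library 2. Of their 23 tested regions, 5 were higher (21.7%, against 21.1% of all tested regions) and 0 lower. The highest was the MRPL21 region from 68891441 to 68891779, with 1.58, 3.70, 3.32 and 1.58 (mean 2.55 ± 1.12; limma adjusted p = 0.0216). MRPL35, a large-subunit protein, had 2.81, 3.17, 1.91 and 1.58 on chromosome 2 from 86211264 to 86211568, plus strand (mean 2.37 ± 0.74; limma adjusted p = 0.0126). With these genes added, the enriched peaks averaged 1.00 per library, or 0.134% of called peaks.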

How the data were processed

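RNA crosslinked to RBFOX2 was measured by eCLIP in 4 IP and 4 input libraries. Per the submitters' processing notes, UMI-tools 1.1.1, cutadapt 3.2, STAR 2.7.7a and the builds hg38 and GRCh38.p13 were used. Peak caller, p-value test and scaling between IP and input are not given in the sources used here. The authors deposited, per IP library, a list of peaks with a −log10 p (0 to 400) and a log2 fold over the paired input. Neither column has a header, and the units were read from the values. BED starts were made 1-based.

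Gene spans came from a RefSeq table of GRCh38.p14 and strands from its promoter table. Peaks sharing 1 nt or more of a strand were merged. In each library, the peak with the highest −log10 p set the fold of a region. In MRPL37, peaks below input had a −log10 p of 0, so this rule favours a peak above input. limma 3.58.1 (R 4.3.3, intercept only, eBayes, two-sided, Benjamini-Hochberg over all regions) gave adjusted p-values. Its recovery and false calls were checked on data simulated with normal noise. Such noise lacks the step values of the real folds, so the check does not cover them. Python 3.11.15 and bedtools 2.31.1 were used. Named were genes enriched in at least 2 libraries, the 10 highest and 5 lowest called regions, the 5 genes with the most peaks and the strongest peak of 1 library. MRPL21, MRPL35, MRPL51, MRPL53, MRPS34, the genes of the remaining called regions and those of the printed sequences were named after their values were seen. Members, lists and thresholds were chosen with earlier results of these data known. The planned search for the motif in regions was limited to gene starts, and exon and intron classes were not analysed here.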

Additional observations from a re-analysis of the deposited data

Results flagged for a closer look

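A value was set apart when 1 of the 4 libraries stood far from the other 3 relative to the whole range (Dixon's ratio, 95% limit). Of 34 values tested, 5 passed. Chance alone flags about 1 in 20 where values do not fall on shared steps, so the count cannot be set against that rate here. The number of called member peaks was 648, 648, 679 and 649, with library 3 apart (ratio 0.968). Library 3 also had the most called peaks in all, 288305. Members made up 0.236% of them, within the range of 0.230% to 0.242% over the libraries. The number of enriched member peaks was 1, 1, 1 and 0, with library 4 apart (ratio 1.00). Counts of 0 and 1 give this ratio whenever a single library differs, so the chance rate does not apply to it. The MRPL37 region starting at 54220091 had log2 folds of 1.00, 1.00, 1.00 and 0.58 (ratio 0.995), with library 4 apart. The MRPL19 region starting at 75647095 had −1.0, −1.0, −1.0 and −0.59 (ratio 0.995), again with library 4 apart. In both, the other libraries sat on the same step value, which likewise gives a ratio near 1, so the chance rate does not apply to them. The MRPS6 region starting at 34085612 had −0.42 in library 1 and between −2.32 and −2.0 in the others (ratio 0.832).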

How the results depend on the processing

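No paired analysis was possible because the fold of a peak is itself IP over the same-numbered input and there is no further group. Raising the −log10 p limit to 5 gave 0.250 enriched member peaks per library against 0.750, in 1 gene against 2, and 0 regions in at least 2 libraries against 1. Lowering the log2 fold limit to 1 gave 1.5 peaks (0.228% against 0.114%) and 2 such regions. Asking for a log2 fold of 4 alone gave 0 peaks (0%), 0 genes and 0 regions. A limit of 3.1 on the −log10 p in libraries 2 and 3 left 1 gene. Counting any called peak gave 2 regions in at least 2 libraries and 2 in all 4 against 0. Leaving out 1 library gave 0.667 to 1.00 enriched peaks, 0.101% to 0.152% of member peaks, 1 to 2 genes, 0 to 1 regions in at least 2 libraries and 0 regions in all that remained. For the limma calls, 20 higher and 5 lower regions became 12 and 2 on library 1 peaks with mutual partners in each other library (57 tested), 1 and 0 against a log2 fold of 1, and 0 to 1 and 0 without 1 library. Leaving out regions in another span of the same strand left 3 lower regions. With a length-weighted mean over all peaks of a library in a region, 17 higher and 4 lower regions were called. The member median was then 0.15 against 0.27, and 0.50 over all tested regions. Of the 25 called regions, 4 lost their call in that fit, among them MRPS5 at 95091891 and MRPL42 (limma adjusted p = 0.0777 and 0.0984). With 1 library fewer, the median over tested member regions was 0.00 to 0.20 against 0.27. The 25 called regions gave 213 alternative values. Of these, 86 kept a limma adjusted p of at most 0.05 and 127 lost it. In fits with 1 library fewer, 1 of 99 kept it. The sign changed in 0 of the 213, which says little about stability. All 4 libraries of each called region lay on the same side of 0. A mean over fewer of them had little room to change sign, and the test against a log2 fold of 1 reused the same mean. The 77-gene alternative was added after the data were seen and changed no result beyond these margins. The cause of these changes was not tested. Depth is unknown, so no error can be put on a fold from 1 library.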
